A study of Mus musculus with 16 samples.

Results

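The collagen genes are the mouse genes that encode the chains of collagen proteins. They were taken as the array rows whose single gene symbol has the form of a collagen chain name (Col, a type number, a and a chain number), with the row of highest mean where a gene had several. The rule gave 44 genes out of 22180 with a row: 11 fibrillar collagen genes, 6 basement membrane collagen genes (the type IV chains) and 27 others. All cells came from the mouse embryonic stem cell line iGPA-Myo7a:mVenus, in which Gfi1, Pou4f3 and Atoh1, transcription factors of hair cell development, are switched on by doxycycline (Dox) and a yellow fluorescent protein reports the hair cell gene Myo7a. The stem cells were cultured in serum as floating embryoid bodies (EBs), which are mixed aggregates of differentiating cells. Induced hair cell-like cells (iHCs) were the Myo7a:mVenus-positive cells sorted by flow cytometry from EBs after trypsin treatment. The 6 groups were Dox+RA iHCs at day 12 and day 8 (Dox with retinoic acid, RA, from culture day 4, for 8 or 4 days), Dox iHCs at day 12 and day 8 (Dox alone over the same days), and control EBs at day 12 and day 8. Each iHC group had 3 arrays and each control EB group had 2, and the labels call these biological replicates. The control EBs came from the same line but were neither treated nor sorted, so treatment and sorting cannot be told apart in any comparison of iHCs with EBs. The RNA of each sample was hybridised to 1 Affymetrix mouse whole-transcript array, and the values are log2 RMA signals, a background-corrected and quantile-normalised array brightness. Such signals have no true zero and came with no detection call, and levels are not compared between genes.

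Collagens are triple helices of chains that fold in the endoplasmic reticulum and are secreted into the extracellular matrix. Fibrillar collagens assemble into the banded fibrils of skin, bone, tendon, vessels and cartilage, and mesenchymal cells are their main source. Type IV collagen forms the sheet-like network of basement membranes together with laminins and nidogens. The others include chains that decorate fibrils (the FACIT collagens), beaded filaments (type VI), transmembrane collagens and multiplexins of the basement membrane zone. In the inner ear, fibrils of types II, IX and XI build the tectorial membrane over the hair cells, where they are made by neighbouring epithelial cells, and variants in the human genes for types II, IV and XI are known causes of hearing loss.

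The labels give embryonic stem cell as the cell type of every group. Hair cell marker genes set the iHCs apart: their mean signal per array was 8.62 to 9.44 in iHCs and 5.27 to 5.35 in control EBs, and 9 of 9 were higher in Dox+RA iHCs than in control EBs at day 12. These 9 include the induced Gfi1, Pou4f3 and Atoh1, and Myo7a, whose reporter was used for sorting. Their higher signal is thus not independent of the induction and the sorting. Neuron markers also had higher array means in iHCs (5.73 to 6.74) than in control EBs (4.52 to 5.24). Of 7 neuron markers 2 were higher and 1 was lower in Dox+RA iHCs at day 12, against 22.4% of all genes in each direction. At day 8, 4 were higher in Dox+RA iHCs and 5 in Dox iHCs, against 19.6% and 15.7% of all genes. In Dox iHCs at day 12, 4 were higher and 1 lower, against 19.2% and 21.7%. Of 6 pluripotent stem cell markers 3 were lower and 1, Sox2, was higher in Dox+RA iHCs at day 12, against 22.4% of all genes in each direction. Arrays of a group correlated at 0.982 to 0.995 over all genes. A gene is called here when its difference had an adjusted p under 0.05 in limma (Benjamini-Hochberg over all 22180 genes), and ± after a difference is limma's standard error.

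Against control EBs of the same day, the iHCs had far less signal for Col1a1, Col1a2 and Col3a1, less for several other fibrillar, type IV and type VI chains, most of all at day 12, and more for a smaller group headed by Col11a2 and Col20a1. In Dox+RA iHCs at day 12, 21 of the 44 collagen genes were lower and 8 were higher, against 22.4% lower and 22.4% higher among all genes (44.8% in either direction). At day 8 the Dox+RA iHCs had 16 lower and 9 higher, against 22% and 19.6% of all genes (41.6% in either direction). In Dox iHCs at day 12, 22 were lower and 5 higher, against 21.7% and 19.2% of all genes (40.8% in either direction). At day 8 the Dox iHCs had 16 lower and 10 higher, against 18.9% and 15.7% of all genes (34.6% in either direction). The median difference over the 44 genes was -0.31 log2 at day 12 in each iHC type, and -0.06 and -0.09 at day 8 in Dox+RA and Dox iHCs, against medians of 0.02 to 0.07 over all genes. Both kinds of iHC were set against the same control EB arrays of a day, so their differences are not independent of each other.

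**Figure D1:**
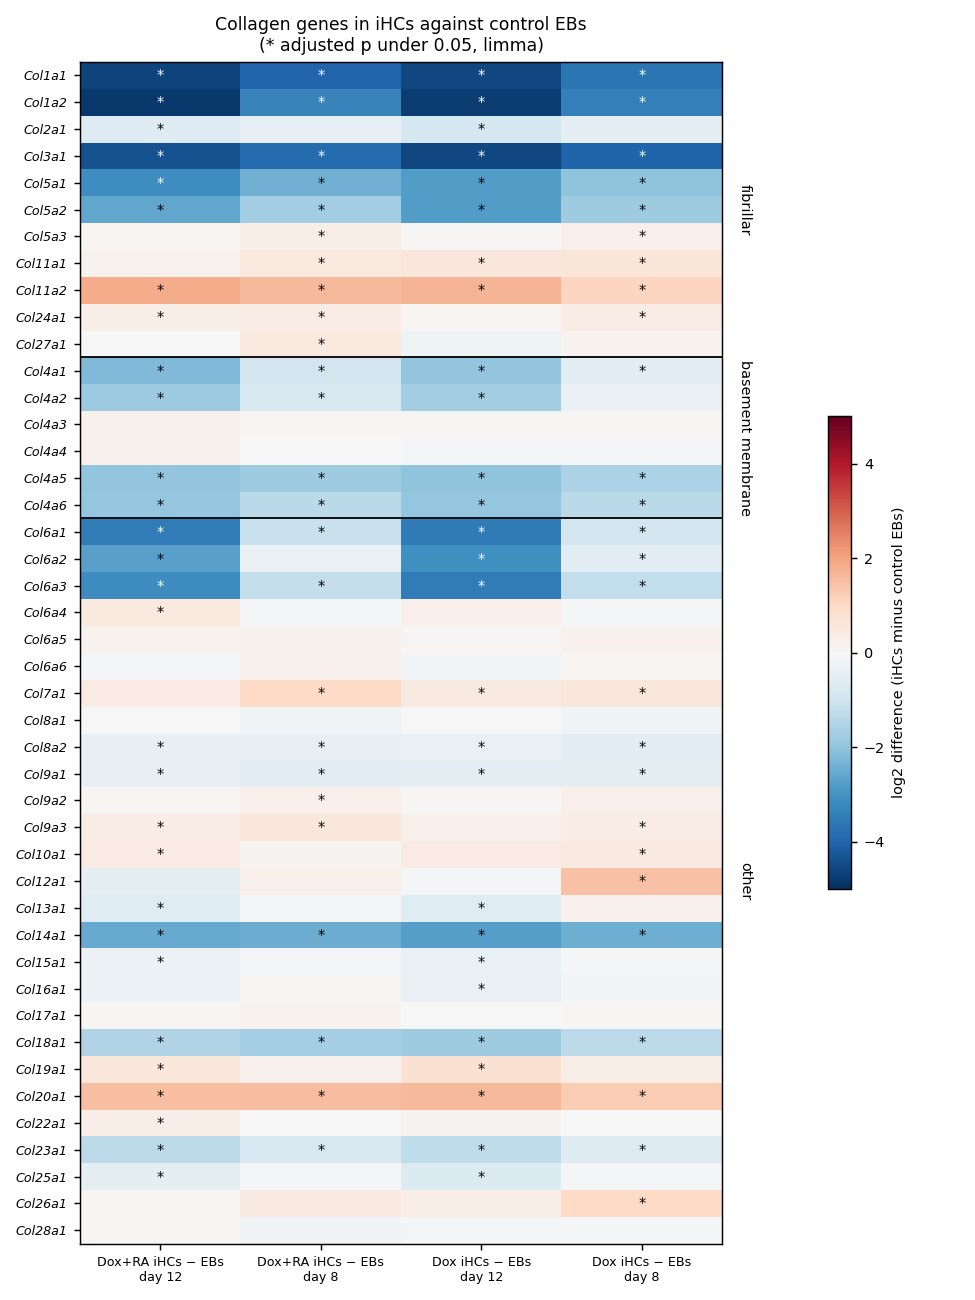
Difference in log2 signal (colour, iHCs minus control EBs) of the 44 collagen genes (rows, grouped by class) in each of 4 comparisons (columns), with a star where the adjusted p was under 0.05. The darkest blue cells are Col1a1, Col1a2 and Col3a1, and the reddest rows are Col11a2 and Col20a1.

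Type I and type III collagen showed the largest differences of the family. Col1a1, which encodes the main chain of type I collagen, had log2 signals of 5.90, 5.65 and 5.74 in Dox+RA iHCs at day 12, against 10.47 and 10.28 in control EBs. At day 8 its signals were 5.92, 5.39 and 5.58 in Dox+RA iHCs, against 9.86 and 9.33 in control EBs. Dox iHCs lay in the same range, with 5.67, 5.51 and 6.29 at day 12 and 6.17, 5.73 and 5.86 at day 8. Every iHC array was thus below every EB array by a wide margin. The differences from control EBs were -4.61 ± 0.22 (24.5-fold lower, adjusted p = 5.1e-10) for Dox+RA iHCs at day 12 and -3.96 ± 0.22 (15.6-fold lower) at day 8. For Dox iHCs they were -4.56 ± 0.22 at day 12 and -3.67 ± 0.22 at day 8.

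Col1a2, the partner chain of type I collagen, had 5.14, 5.11 and 5.35 in Dox+RA iHCs at day 12, against 10.02 and 10.00 in control EBs, the largest difference of any collagen gene in that comparison at -4.81 ± 0.17 (28.0-fold lower, adjusted p = 3.0e-11). Its day 8 signals were 5.14, 5.20 and 5.32 in Dox+RA iHCs and 5.06, 5.17 and 5.24 in Dox iHCs, against 8.86 and 8.27 in control EBs. The iHC arrays therefore stayed near one level on both days while the EB arrays differed by day. Dox iHCs at day 12 had 5.19, 5.02 and 5.58, a difference of -4.74 ± 0.17. A second array row for Col1a2, not used because its mean was lower, averaged 2.75 in Dox+RA iHCs, 2.67 in Dox iHCs and 5.76 in control EBs at day 12. The direction was thus the same in both rows, but the size of the difference depends on the row. Col3a1, the chain of the reticular fibres of vessels and soft organs, had 5.54, 5.27 and 5.64 in Dox+RA iHCs at day 12, against 9.85 and 9.85 in control EBs (-4.37 ± 0.16, adjusted p = 4.0e-11). Its differences were -3.86 ± 0.16 in Dox+RA iHCs at day 8, -4.55 ± 0.16 in Dox iHCs at day 12 and -4.0 ± 0.16 in Dox iHCs at day 8.

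**Figure D2:**
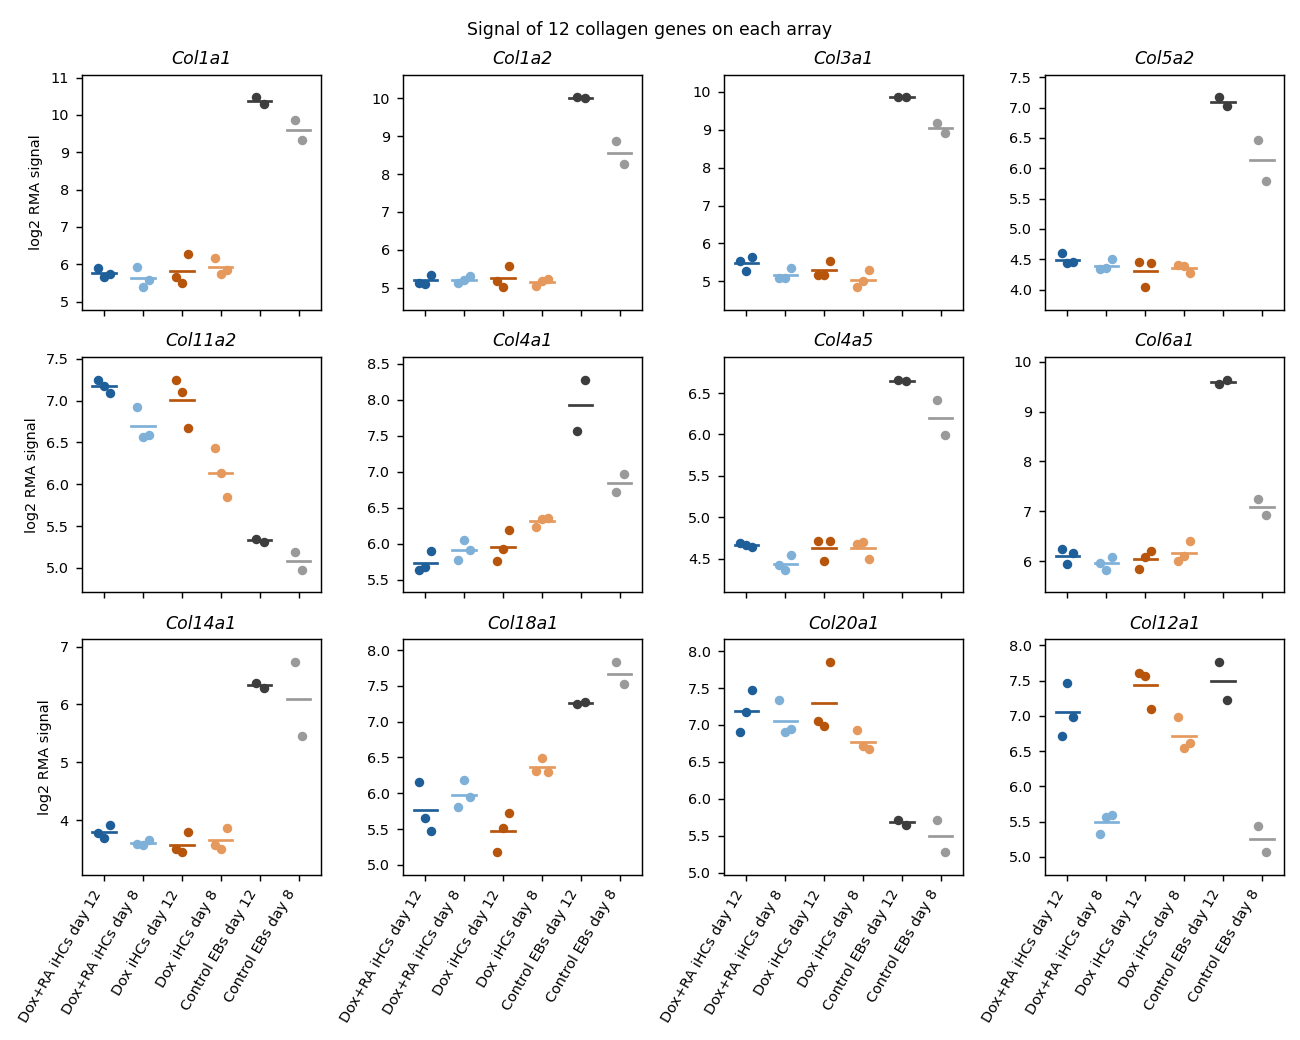
Log2 RMA signal (vertical axis, own range for each gene) of 12 collagen genes on every array, with points for arrays and a line at each group's mean. Col1a1, Col1a2 and Col3a1 sit at about the same low level in all iHC groups, while Col11a2 and Col20a1 are above the control EBs and Col12a1 is lowest in Dox+RA iHCs and control EBs of day 8.

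Col5a1 and Col5a2, chains of the type V collagen that starts and limits the growth of type I fibrils, were also lower. Col5a1 was lower, at -3.12 ± 0.19 in Dox+RA iHCs and -2.79 ± 0.19 in Dox iHCs at day 12, and at -2.42 ± 0.19 and -2.03 ± 0.19 at day 8. A second array row for Col5a1, not used because its mean was lower, averaged 4.55 in Dox+RA iHCs, 4.59 in Dox iHCs and 4.68 in control EBs at day 12, so the rows of this gene disagree. Col5a2 had 4.60, 4.43 and 4.45 in Dox+RA iHCs at day 12, against 7.17 and 7.03 in control EBs (-2.60 ± 0.17). At day 8 the control EB arrays for Col5a2 stood apart from each other at 6.47 and 5.79, both above the Dox+RA iHCs at 4.34, 4.35 and 4.50. Col2a1, the collagen of cartilage and of the tectorial membrane, was lower at day 12, at -0.66 ± 0.17 in Dox+RA iHCs and -0.86 ± 0.17 in Dox iHCs. Its day 8 differences of -0.40 ± 0.17 and -0.43 ± 0.17 were not called (adjusted p = 0.069 and 0.058). With the replicate number as a block they were called (adjusted p = 0.022 and 0.017). In comparisons with control EBs this block also assumes that the EB numbers pair, which was not established.

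The other fibrillar genes went the other way or were not called. Col11a2, a chain of the thin cartilage fibrils whose human gene is known for deafness, had 7.25, 7.18 and 7.09 in Dox+RA iHCs at day 12, against 5.35 and 5.31 in control EBs. In Dox iHCs at day 12 it had 7.25, 7.10 and 6.67. At day 8 it had 6.93, 6.57 and 6.59 in Dox+RA iHCs and 6.43, 6.14 and 5.85 in Dox iHCs, against 5.19 and 4.98 in control EBs. All 12 iHC arrays exceeded all 4 EB arrays. The differences were +1.84 ± 0.18 (3.59-fold higher, adjusted p = 6.2e-07) in Dox+RA iHCs and +1.68 ± 0.18 in Dox iHCs at day 12, and +1.61 ± 0.18 and +1.06 ± 0.18 at day 8.

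Col11a1, the partner of Col11a2 in those fibrils, was higher in Dox iHCs by +0.55 ± 0.13 at day 12 and +0.59 ± 0.13 at day 8, and in Dox+RA iHCs by +0.47 ± 0.13 at day 8. In Dox+RA iHCs at day 12 its difference of +0.16 ± 0.13 was not called. Col24a1, a fibrillar chain of developing bone, was higher by +0.28 ± 0.11 in Dox+RA iHCs at day 12, by +0.39 ± 0.11 in Dox+RA iHCs at day 8 and by +0.38 ± 0.11 in Dox iHCs at day 8. Col5a3, the least widespread type V chain, was higher by +0.34 ± 0.10 in Dox+RA iHCs and +0.27 ± 0.10 in Dox iHCs at day 8. Col27a1, a fibrillar chain of cartilage, was higher by +0.49 ± 0.16 in Dox+RA iHCs at day 8. These small differences rest on few arrays. Leaving out control EB day 8 replicate 2 ended the day 8 calls of Col11a1 (adjusted p = 0.18 in Dox+RA and 0.07 in Dox iHCs), Col24a1 (0.11 and 0.13), Col5a3 (0.079 and 0.21) and Col27a1 (0.079), by limma. Leaving out control EB day 8 replicate 1 or Dox+RA day 8 replicate 2 or 3 also ended the call of Col27a1 (adjusted p = 0.11, 0.059 and 0.099). The Col24a1 call in Dox iHCs was also lost without Dox day 8 replicate 3 (0.051). The Col24a1 call at day 12 and the Col5a3 call in Dox iHCs were lost with the replicate block (adjusted p = 0.067 and 0.057) and when most single arrays of any group were left out, with adjusted p of 0.051 to 0.18 for Col24a1 and 0.05 to 0.21 for Col5a3. By class, 6 of the 11 fibrillar genes were lower and 2 higher at day 12 in each iHC type (54.5% and 18.2%). Among all genes 22.4% were lower and 22.4% higher in Dox+RA iHCs, and 21.7% and 19.2% in Dox iHCs. The higher share of the class was thus not above that of all genes. At day 8 the count was 5 lower and 5 higher in Dox+RA iHCs, against 22% and 19.6% of all genes. In Dox iHCs it was 5 lower and 4 higher, against 18.9% and 15.7%.

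The promoter windows of the 2 most strongly lower fibrillar genes with a RefSeq window here, Col1a2 (chr6:4505368-4505667, plus strand) and Col3a1 (chr1:45311288-45311587, plus strand), and of the higher Col11a2 (chr17:34038888-34039187, plus strand), are printed to show how unlike they are. Each window runs from 250 bases before to 50 after the gene's start in RefSeq build GRCm38.p6, and capitals mark the letters CCAAT or TATAAA on either strand.
Col1a2: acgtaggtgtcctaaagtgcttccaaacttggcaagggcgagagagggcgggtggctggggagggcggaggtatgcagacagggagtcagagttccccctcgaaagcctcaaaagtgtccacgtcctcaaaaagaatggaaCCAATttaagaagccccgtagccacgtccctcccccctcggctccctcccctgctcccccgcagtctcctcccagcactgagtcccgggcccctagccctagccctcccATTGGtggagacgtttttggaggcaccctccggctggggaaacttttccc
Col3a1: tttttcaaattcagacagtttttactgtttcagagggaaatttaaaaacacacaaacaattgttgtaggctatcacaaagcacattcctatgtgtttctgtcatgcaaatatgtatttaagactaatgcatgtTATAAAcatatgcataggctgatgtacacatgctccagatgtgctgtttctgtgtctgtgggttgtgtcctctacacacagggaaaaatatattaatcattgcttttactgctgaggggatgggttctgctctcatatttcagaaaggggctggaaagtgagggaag
Col11a2: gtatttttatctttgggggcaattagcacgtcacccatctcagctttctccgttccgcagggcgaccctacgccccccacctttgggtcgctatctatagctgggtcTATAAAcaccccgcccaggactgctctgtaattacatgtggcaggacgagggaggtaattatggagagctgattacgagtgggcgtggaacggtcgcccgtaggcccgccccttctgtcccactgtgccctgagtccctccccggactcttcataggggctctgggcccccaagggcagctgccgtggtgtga
The Col1a2 window had a GC content of 61.0% and 2 CCAAT matches, the Col3a1 window 37.7% and 1 TATAAA match, and the Col11a2 window 59.0% and 1 TATAAA match. Among all 32851 windows, 37.4% held CCAAT and 13.6% held TATAAA on either strand, and among the 38 windows of the 35 collagen genes with one, 13 and 5 did. GGGCGG was found in 23 of the 38 windows and in 35.7% of all, and CAGNTG in 17 of the 38 and in 51.4% of all. The median GC content was 59.8% over the collagen windows and 52.7% over all.

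Marker genes of mesenchyme, the usual source of fibrillar collagens, moved with these differences. Of 11 mesenchyme markers 10 were lower and none was higher in Dox+RA iHCs at day 12, and the same counts held in each of the other comparisons of iHCs with EBs. Among all genes 18.9% to 22.4% were lower in these comparisons. The mean signal of the markers per array was 4.42 to 4.73 in Dox+RA iHCs and 4.51 to 5.10 in Dox iHCs, against 7.53 to 8.01 in control EBs. Pdgfra, a receptor that marks mesenchymal cells, averaged 4.52 ± 0.24 in Dox+RA iHCs at day 12 (SD, n = 3), against 9.68 ± 0.05 in control EBs (SD, n = 2). In mixed EBs fewer cells of a type and less RNA per cell cannot be told apart, and the part of mesenchyme in the collagen differences was not tested. Chondrocyte markers, which accompany types II, IX and XI in cartilage, had a mean signal per array of 4.95 to 5.69 in iHCs and 5.17 to 5.74 in control EBs. At day 12 in Dox+RA iHCs 2 of 5 were higher (Matn1 and Comp) and 2 lower (Sox9 and Hapln1), against 22.4% of all genes in each direction.

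The type IV genes split into chains that were lower and chains that were not called. Col4a1, one of the 2 chains found in nearly every basement membrane, had 5.64, 5.67 and 5.90 in Dox+RA iHCs at day 12, against 7.57 and 8.28 in control EBs, a difference of -2.19 ± 0.18 (4.58-fold lower, adjusted p = 9.4e-08). Dox iHCs at day 12 had 5.76, 5.92 and 6.19 (-1.97 ± 0.18). At day 8 its signals were 5.78, 6.05 and 5.91 in Dox+RA iHCs and 6.23, 6.34 and 6.36 in Dox iHCs, against 6.72 and 6.97 in control EBs. All iHC arrays were below the EB arrays, with a narrower gap at day 8. The day 8 difference was -0.93 ± 0.18 in Dox+RA iHCs. In Dox iHCs it was -0.53 ± 0.18, and this call was lost without control EB day 8 replicate 2 (adjusted p = 0.23), Dox day 8 replicate 1 (0.081) or Dox day 8 replicate 2 (0.052). Col4a2, its partner chain, was lower, at -1.80 ± 0.19 in Dox+RA iHCs and -1.72 ± 0.19 in Dox iHCs at day 12, and at -0.81 ± 0.19 in Dox+RA iHCs at day 8. In Dox iHCs at day 8 Col4a2 had a difference of -0.35 ± 0.19, which was not called (adjusted p = 0.19, and 0.027 with the replicate block).

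Col4a5 and Col4a6, chains of kidney, lung and smooth muscle basement membranes, were lower on both days. Col4a5 had 4.69, 4.67 and 4.64 in Dox+RA iHCs at day 12, against 6.66 and 6.64 in control EBs (-1.98 ± 0.12). At day 8 it had 4.43, 4.37 and 4.54 in Dox+RA iHCs, against 6.42 and 5.99 in control EBs (-1.76 ± 0.12). Its Dox iHC differences were -2.02 ± 0.12 at day 12 and -1.58 ± 0.12 at day 8. Col4a6 had a difference of -1.92 ± 0.14 at day 12 and -1.35 ± 0.14 at day 8 in Dox+RA iHCs, and of -1.94 ± 0.14 and -1.35 ± 0.14 in Dox iHCs. Col4a3 and Col4a4, the remaining chains, which join Col4a5 in the glomerulus and the cochlea, were near one level in all groups, and none of their differences from control EBs was called. Col4a3 averaged 4.07 to 4.27 and Col4a4 3.68 to 3.98 over the groups. In all, 4 of the 6 type IV genes were lower and none higher in Dox+RA iHCs at both days and in Dox iHCs at day 12, and 3 of 6 in Dox iHCs at day 8. Among all genes 18.9% to 22.4% were lower in these comparisons. The median difference over the 6 genes was -1.86 in Dox+RA iHCs at day 12 and -0.87 at day 8. In Dox iHCs it was -1.83 at day 12 and -0.44 at day 8.

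Col4a2 (chr8:11312555-11312854, plus strand) and Col4a1 (chr8:11312777-11313076, minus strand) start head to head, and their promoter windows share 78 bases. Both windows are printed to show this shared stretch, in capitals, which reads as opposite strands of one sequence.
Col4a2: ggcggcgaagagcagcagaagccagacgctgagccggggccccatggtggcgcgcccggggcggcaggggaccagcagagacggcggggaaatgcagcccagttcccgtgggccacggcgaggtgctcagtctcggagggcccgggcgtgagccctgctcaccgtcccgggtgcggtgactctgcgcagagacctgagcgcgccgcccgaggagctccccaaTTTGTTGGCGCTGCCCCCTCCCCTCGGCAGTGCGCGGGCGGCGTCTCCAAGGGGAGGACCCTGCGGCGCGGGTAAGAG
Col4a1: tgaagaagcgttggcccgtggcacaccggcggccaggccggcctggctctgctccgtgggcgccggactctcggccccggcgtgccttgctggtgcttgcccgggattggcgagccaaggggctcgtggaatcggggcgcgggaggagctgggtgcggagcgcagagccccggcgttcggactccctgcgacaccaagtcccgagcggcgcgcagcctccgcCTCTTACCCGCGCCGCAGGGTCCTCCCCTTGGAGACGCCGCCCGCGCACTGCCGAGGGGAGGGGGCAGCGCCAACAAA
The windows had a GC content of 73.7% for Col4a2 and 74.0% for Col4a1. Those of Col4a5 and Col4a6, also on opposite strands, were 842 bases apart. Of the 44 genes 8 pairs are direct neighbours in the RefSeq gene order. In Dox+RA iHCs at day 12, Col4a1 and Col4a2 had -2.19 and -1.80, Col4a5 and Col4a6 -1.98 and -1.92, Col6a1 and Col6a2 -3.49 and -2.71, and Col4a4 and Col4a3 +0.23 and +0.20. Col3a1 and Col5a2 had -4.37 and -2.60, Col6a6 and Col6a5 -0.04 and +0.18, and Col6a5 and Col6a4 +0.18 and +0.49. Col9a1 and Col19a1 were neighbours with opposite signs, at -0.42 ± 0.14 and +0.53 ± 0.15.

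Endothelial and parietal endoderm cells are rich sources of type IV collagen, and their markers were lower in iHCs as well. Of 6 endothelium markers 5 were lower at day 12 in Dox+RA iHCs, against 22.4% of all genes. The mean signal of these markers per array was 4.59 to 6.33 in iHCs. In control EBs it was 7.43 and 7.38 at day 12 and 8.31 and 8.21 at day 8. In these EBs 2 of the 6 were lower at day 12 and none was higher, against 1.42% and 2.33% of all genes. Col4a1, Col4a2 and Col4a6 were higher at day 12 there. The median endothelium difference of Dox+RA iHCs from control EBs was -1.9 at day 12 and -2.2 at day 8. For the type IV genes it was -1.86 and -0.87. Of 7 primitive and parietal endoderm markers 5 were lower in Dox+RA iHCs than in control EBs at day 12. Their array means were 5.21 to 5.97 in iHCs. In control EBs they were 6.96 and 7.21 at day 12 and 6.82 and 6.82 at day 8, with no marker called between the days. The part of these cell types in the type IV differences was not tested.

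Type VI collagen forms beaded filaments around cells, and its main chains had differences that were much larger at day 12 than at day 8. Col6a1 had 6.24, 5.94 and 6.16 in Dox+RA iHCs at day 12, against 9.56 and 9.64 in control EBs. At day 8 it had 5.97, 5.83 and 6.09 in Dox+RA iHCs, against 7.25 and 6.92 in control EBs. The iHC arrays were alike on both days, and the EB arrays were not. The differences were -3.49 ± 0.15 (11.2-fold lower, adjusted p = 1.4e-10) at day 12 and -1.12 ± 0.15 at day 8 in Dox+RA iHCs, and -3.55 ± 0.15 and -0.91 ± 0.15 in Dox iHCs. A second array row for Col6a1, not used because its mean was lower, gave smaller differences in the same direction. It averaged 3.77 in Dox+RA iHCs, 3.54 in Dox iHCs and 5.44 in control EBs at day 12. At day 8 it averaged 3.65, 3.64 and 3.94. Col6a3, the chain with the longest protein of the type, was lower, at -3.16 ± 0.13 at day 12 and -1.19 ± 0.13 at day 8 in Dox+RA iHCs, and at -3.49 ± 0.13 and -1.25 ± 0.13 in Dox iHCs. Col6a2 was lower at day 12, at -2.71 ± 0.15 in Dox+RA iHCs and -3.05 ± 0.15 in Dox iHCs. At day 8 Col6a2 was lower in Dox iHCs (-0.58 ± 0.15), a call lost without control EB day 8 replicate 1 (adjusted p = 0.13). Its day 8 difference in Dox+RA iHCs, -0.35 ± 0.15, was not called (adjusted p = 0.071, and 0.0058 with the replicate block). Of the alternative chains, Col6a4 was higher in Dox+RA iHCs at day 12 (+0.49 ± 0.13), a call lost without control EB day 12 replicate 2 (adjusted p = 0.074). Col6a5 and Col6a6 were not called against control EBs, with differences of -0.13 to +0.23.

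Among the FACIT collagens, which bind the surface of fibrils, Col14a1 was lower and Col20a1 higher in every iHC group than in control EBs of its day. Col14a1, found on type I fibrils of tendon and skin, had 3.78, 3.70 and 3.91 in Dox+RA iHCs at day 12, against 6.37 and 6.29 in control EBs (-2.53 ± 0.25, adjusted p = 7.5e-07). The day 8 control EB arrays for Col14a1 were 6.73 and 5.45, a wide spread, but both lay above the iHC arrays, which spanned 3.45 to 3.91. Col20a1, a FACIT member of poorly known function, had 6.91, 7.18 and 7.47 in Dox+RA iHCs at day 12, against 5.71 and 5.65 in control EBs (+1.51 ± 0.23, 2.85-fold higher, adjusted p = 7.6e-05). At day 8 it had 7.34, 6.90 and 6.94 in Dox+RA iHCs and 6.93, 6.71 and 6.67 in Dox iHCs, against 5.72 and 5.28 in control EBs. All iHC arrays were above all EB arrays. Its other differences were +1.56 ± 0.23 in Dox+RA iHCs at day 8, +1.62 ± 0.23 in Dox iHCs at day 12 and +1.27 ± 0.23 in Dox iHCs at day 8.

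The Col20a1 window (chr2:180986285-180986584, plus strand) is printed as that of the FACIT gene with the highest positive difference at day 12. It held none of the 4 motifs searched and has no capitals.
Col20a1: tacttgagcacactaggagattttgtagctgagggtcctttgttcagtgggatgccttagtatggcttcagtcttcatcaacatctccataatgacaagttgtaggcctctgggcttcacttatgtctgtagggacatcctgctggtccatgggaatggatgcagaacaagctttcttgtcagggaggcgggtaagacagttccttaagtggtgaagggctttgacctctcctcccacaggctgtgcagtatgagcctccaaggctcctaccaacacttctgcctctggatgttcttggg

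Type IX collagen, which coats type II fibrils, had small differences. Col9a1 was lower, at -0.42 ± 0.14 in Dox+RA iHCs at day 12, and at -0.46 to -0.51 in the other iHC groups. Col9a3 was higher by +0.36 ± 0.11 in Dox+RA iHCs at day 12, by +0.57 ± 0.11 in Dox+RA iHCs at day 8 and by +0.36 ± 0.11 in Dox iHCs at day 8. Col9a2 was higher in Dox+RA iHCs at day 8 (+0.27 ± 0.09). Leaving out single arrays ended most of these calls. For Col9a1 the day 8 calls were lost without control EB day 8 replicate 1 (adjusted p = 0.22 in Dox+RA and 0.29 in Dox iHCs). Its Dox+RA call at day 12 was lost without either control EB day 12 replicate (0.13 and 0.065) or Dox+RA day 12 replicate 1 or 2 (0.06 and 0.053), and its Dox call without control EB day 12 replicate 1 (0.1) or Dox day 12 replicate 2 (0.056). Col9a2 lost its call without control EB day 8 replicate 2 (0.31) or Dox+RA day 8 replicate 1 or 2 (0.074 and 0.1). The Dox call of Col9a3 was lost without either control EB day 8 replicate (0.052 and 0.088) or Dox day 8 replicate 1 (0.066), and its Dox+RA call at day 12 without control EB day 12 replicate 1 (0.079). Col19a1, a FACIT chain that neurons of the brain make, was higher at day 12 by +0.53 ± 0.15 in Dox+RA iHCs and +0.75 ± 0.15 in Dox iHCs. Col22a1, of tissue junctions, was higher in Dox+RA iHCs at day 12 (+0.35 ± 0.10). Both Dox+RA calls were lost without control EB day 12 replicate 2 (adjusted p = 0.21 and 0.14). Col16a1 was lower in Dox iHCs at day 12 (-0.39 ± 0.13), and not without control EB day 12 replicate 1 (adjusted p = 0.35) or Dox day 12 replicate 2 (0.087). With the replicate block Col16a1 was also called in Dox+RA iHCs at day 12 (adjusted p = 0.029, against 0.063), and Col19a1 in Dox iHCs at day 8 (0.017, against 0.12).

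Col18a1, the multiplexin from which endostatin is cut, was lower in all iHC groups. It had 6.16, 5.65 and 5.47 in Dox+RA iHCs at day 12, against 7.25 and 7.28 in control EBs (-1.50 ± 0.19), and 5.81, 6.18 and 5.95 at day 8, against 7.83 and 7.52 (-1.69 ± 0.19). Its Dox iHC differences were -1.79 ± 0.19 at day 12 and -1.31 ± 0.19 at day 8. Col15a1, the other multiplexin, was lower at day 12, at -0.31 ± 0.08 in Dox+RA iHCs and -0.37 ± 0.08 in Dox iHCs, and was not called at day 8. Its Dox+RA call was lost without control EB day 12 replicate 2 (adjusted p = 0.056). Of the transmembrane collagens, Col23a1 was lower, at -1.32 ± 0.15 in Dox+RA iHCs at day 12 and at -0.64 to -1.27 in the other iHC groups. Col13a1, which acts at the neuromuscular junction, was lower at day 12, at -0.61 ± 0.12 in Dox+RA iHCs and -0.62 ± 0.12 in Dox iHCs. Col25a1, needed by motor neurons to reach muscle, was lower at day 12, at -0.50 ± 0.14 and -0.67 ± 0.14. Its Dox+RA call was lost without control EB day 12 replicate 1 (adjusted p = 0.14), and the Dox day 8 call of Col23a1 without control EB day 8 replicate 1 (0.079).

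Col7a1, which makes the anchoring fibrils under skin epithelium, had 5.90, 6.47 and 6.55 in Dox+RA iHCs at day 8, against 5.39 and 5.23 in control EBs (+1.0 ± 0.17). Its smaller differences were +0.56 ± 0.17 in Dox iHCs at day 8 and +0.45 ± 0.17 in Dox iHCs at day 12, and +0.41 ± 0.17 in Dox+RA iHCs at day 12, which was not called (adjusted p = 0.063). The Dox call at day 12 (adjusted p = 0.045) was lost when any of 9 single arrays was left out, with adjusted p of 0.051 to 0.16. The Dox call at day 8 was lost without control EB day 8 replicate 2 (0.14) or Dox day 8 replicate 3 (0.065). Col26a1, first found in testis and ovary, was higher in Dox iHCs at day 8 (+0.99 ± 0.18) and was not called in the other iHC groups (+0.05 to +0.46). Col8a2, of short-chain networks, was lower in all iHC groups, at -0.38 to -0.54. Its Dox+RA calls were lost without control EB day 8 replicate 2 at day 8 (adjusted p = 0.11) and without control EB day 12 replicate 1 at day 12 (0.053). Its Dox call at day 12 was lost without either control EB day 12 replicate (0.083 and 0.075) or Dox day 12 replicate 2 (0.075). Col10a1, of growth plate cartilage, was higher by +0.42 ± 0.15 in Dox+RA iHCs at day 12 and +0.44 ± 0.15 in Dox iHCs at day 8. Its Dox+RA call was lost without either control EB day 12 replicate (0.18 and 0.082) or Dox+RA day 12 replicate 1 or 2 (0.1 and 0.066), and its Dox call without control EB day 8 replicate 2 (0.32) or Dox day 8 replicate 1 or 2 (0.072 and 0.12). Both Col10a1 calls were lost after another quantile normalisation (0.081 in Dox+RA and 0.068 in Dox iHCs), and the Dox call with arrays centred on their median (0.051). With the replicate block Col10a1 was also called in Dox iHCs at day 12 (0.022, against 0.052). Col8a1, Col17a1 and Col28a1 were not called in any comparison of iHCs with EBs, with differences of -0.21 to +0.17.

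Several collagen genes were higher in control EBs at day 12 than at day 8. At day 12, 11 of the 44 genes were higher than at day 8 and none was lower, against 2.33% higher and 1.42% lower among all genes (3.75% in either direction). Col6a1 rose by 2.52 ± 0.16 (adjusted p = 4.8e-07), Col6a2 by 2.43 ± 0.16, Col12a1 by 2.23 ± 0.25, Col6a3 by 2.18 ± 0.14 and Col1a2 by 1.44 ± 0.19. Col4a1, Col4a2, Col4a6, Col5a2, Col3a1 and Col13a1 rose by 0.64 to 1.08. With 2 arrays per day these calls differ in strength. In a limma fit of the control EB groups alone, Col4a1, Col4a6 and Col5a2 were not called (adjusted p = 0.062, 0.17 and 0.075). Col1a2, Col6a1, Col6a2, Col6a3 and Col12a1 were called whichever single array was left out. When control EB day 8 replicate 2 was left out, 6 of the 11 were called, and Col3a1, Col4a2, Col4a6, Col5a2 and Col13a1 were lost (adjusted p = 0.06 to 0.38). Leaving out control EB day 12 replicate 1 ended the calls of Col3a1, Col5a2 and Col13a1 (0.084 to 0.11), and control EB day 12 replicate 2 those of Col3a1, Col4a1, Col4a2 and Col4a6 (0.055 to 0.24). The call of Col4a2 was also lost without control EB day 8 replicate 1 (0.069). Col1a1 differed by +0.78 ± 0.24 between the days, which was not called (adjusted p = 0.11, and 0.023 with the replicate block). The block also called Col16a1 there (+0.42, adjusted p = 0.046 against 0.15). Mesenchyme markers had array means of 8.01 and 8.01 in control EBs at day 12, against 7.83 and 7.53 at day 8, and 2 of 11 were higher at day 12.

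In Dox+RA iHCs, Col12a1 was higher at day 12 than at day 8 (+1.56 ± 0.20, adjusted p = 9.8e-04) and Col7a1 was lower (-0.66 ± 0.15, adjusted p = 0.024), 2 calls in all, against 4.38% of all genes (1.78% higher and 2.61% lower). The Col7a1 call was lost without Dox+RA day 12 replicate 1 or 2 (adjusted p = 0.11 and 0.091) or Dox+RA day 8 replicate 2 or 3 (0.11 and 0.098). In Dox iHCs, Col11a2 (+0.87 ± 0.16) and Col12a1 (+0.72 ± 0.20) were higher and Col18a1 (-0.89 ± 0.17) was lower, 3 calls against 8.05% of all genes (3.39% higher and 4.66% lower). The Dox call of Col12a1 (adjusted p = 0.044) was lost without any of 8 arrays, with adjusted p of 0.05 to 0.18. In a limma fit of the Dox iHC groups alone, Col11a2 and Col12a1 were not called (adjusted p = 0.061 and 0.075). Col7a1 was not called in a fit of the Dox+RA iHC groups alone (0.086). With the replicate block 6 genes were called in Dox iHCs, against 14.2% of all genes in that fit, Col2a1, Col4a2 and Col26a1 (-0.44 to -0.48) being added. In Dox+RA iHCs 3 were called, against 9.06% of all genes, Col11a2 being added (+0.47 ± 0.10). Without the block, 5 genes were called in Dox iHCs when Dox day 8 replicate 1 was left out and 7 when Dox day 12 replicate 3 was left out. The share of all genes called in those fits is not given, so neither count is read as a result about collagen genes.

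The difference between these time courses was tested as an interaction. For Dox iHCs against control EBs, 9 collagen genes had a lower day 12 minus day 8 difference in iHCs and none a higher one, against 1.81% lower and 1.03% higher among all genes (2.84% in either direction). For Dox+RA iHCs 5 were lower and none higher, against 1.67% and 0.956% of all genes (2.62% in either direction), and 8 were called with the replicate block, against 5.18% of all genes in that fit. The block called 12 for Dox iHCs, against 6.45% of all genes, adding Col1a1 (-0.88, adjusted p = 0.043 against 0.18), Col3a1 (-0.55, 0.039 against 0.25) and Col11a2 (0.034 against 0.25). Col11a2, at +0.62, had the higher difference in iHCs. For Dox+RA iHCs the block added Col4a2 (-0.99, 0.0092), Col5a2 (-0.87, 0.023) and Col13a1 (-0.55, 0.042). The type VI chains led both: Col6a1 had a change of +0.15 ± 0.13 in Dox+RA iHCs and -0.12 ± 0.13 in Dox iHCs, against +2.52 ± 0.16 in control EBs, which gave interactions of -2.37 (adjusted p = 2.4e-05) and -2.64 (8.6e-06). Col1a2 and Col4a1 were the other genes called for Dox+RA iHCs. For Dox iHCs the further genes were Col1a2, Col4a1, Col4a2, Col5a2, Col12a1 and Col13a1. The Dox count was 5 when control EB day 8 replicate 2 was left out, with Col1a2, Col4a1, Col6a1, Col6a2 and Col6a3 still called.

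**Figure D3:**
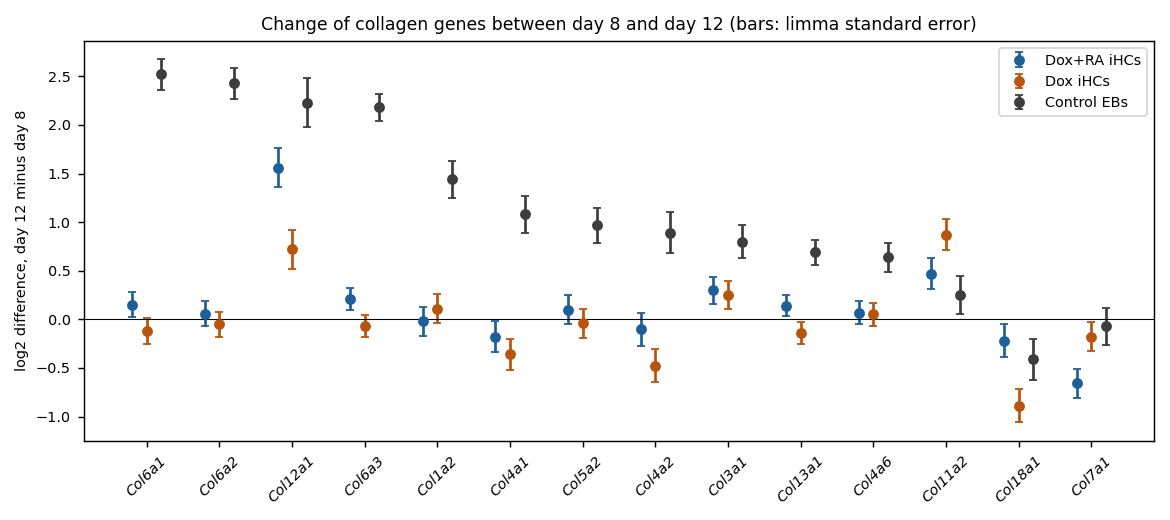
Difference in log2 signal between day 12 and day 8 (vertical axis; bars, limma standard error) for the 14 collagen genes called in any of the 3 cell groups, in Dox+RA iHCs, Dox iHCs and control EBs. The EB points for Col6a1, Col6a2 and Col6a3 lie above 2 while both iHC points lie near 0, and Col12a1 is above 0 in all groups.

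Retinoic acid, a derivative of vitamin A used to pattern the ear and other tissues, separated few collagen genes. At day 8, 1 of 44 genes was called between Dox+RA and Dox iHCs, against 4.93% of all genes (2.05% higher and 2.89% lower). That fit left the replicate numbers out, and the fit with them as a block is given below. Col12a1, a FACIT chain of tendon, ligament and bone surfaces, had 5.33, 5.56 and 5.59 in Dox+RA iHCs, against 6.99, 6.54 and 6.61 in Dox iHCs (-1.22 ± 0.20, 2.32-fold lower, adjusted p = 0.0039). Control EBs at day 8 had 5.44 and 5.07, so that Dox iHCs stood above them (+1.45 ± 0.23, adjusted p = 1.2e-04) while the Dox+RA difference of +0.24 ± 0.23 was not called. At day 12 the gene had 6.71, 7.46 and 6.99 in Dox+RA iHCs, against 7.61, 7.57 and 7.10 in Dox iHCs (-0.37 ± 0.20, adjusted p = 0.5). These iHC groups overlapped at day 12. Control EBs at day 12 had 7.76 and 7.22, which overlapped the arrays of both iHC groups, and Col12a1 was not called against them in either. The difference between the RA effects of the days was +0.84 ± 0.29 and was not called (adjusted p = 0.71).

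With the replicate number as a block, 6 collagen genes were called for RA at day 8, against 11% of all genes in that fit, so that the share of collagen genes was close to the background. Col11a2 was higher (+0.56 ± 0.10, adjusted p = 0.003, against 0.06 without the block) and Col7a1 was higher (+0.44 ± 0.12). Col4a1 (-0.40 ± 0.12), Col4a2 (-0.47 ± 0.12) and Col26a1 (-0.53 ± 0.14) were lower, beside Col12a1. Single arrays moved the count of the fit without the block. It was 3 without Dox day 8 replicate 1, without Dox+RA day 8 replicate 1 or without Dox day 12 replicate 3. It was 2 without Dox day 12 replicate 1. The share of all genes called in those fits is not given, so these counts are not read as a result about collagen genes. At day 12 none of the 44 genes was called by limma, against 0.924% of all genes (0.383% higher and 0.541% lower), and 5 had an unadjusted p under 0.05. The differences of the 44 genes at day 12 ran from -0.39 to +0.34. Between the days the RA effect differed in none of the 44 genes, against 0.00902% of all genes, and 4 had an unadjusted p under 0.05. The share of all genes with an unadjusted p under 0.05 is not given for either test, so neither count is read as an effect.

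**Figure D4:**
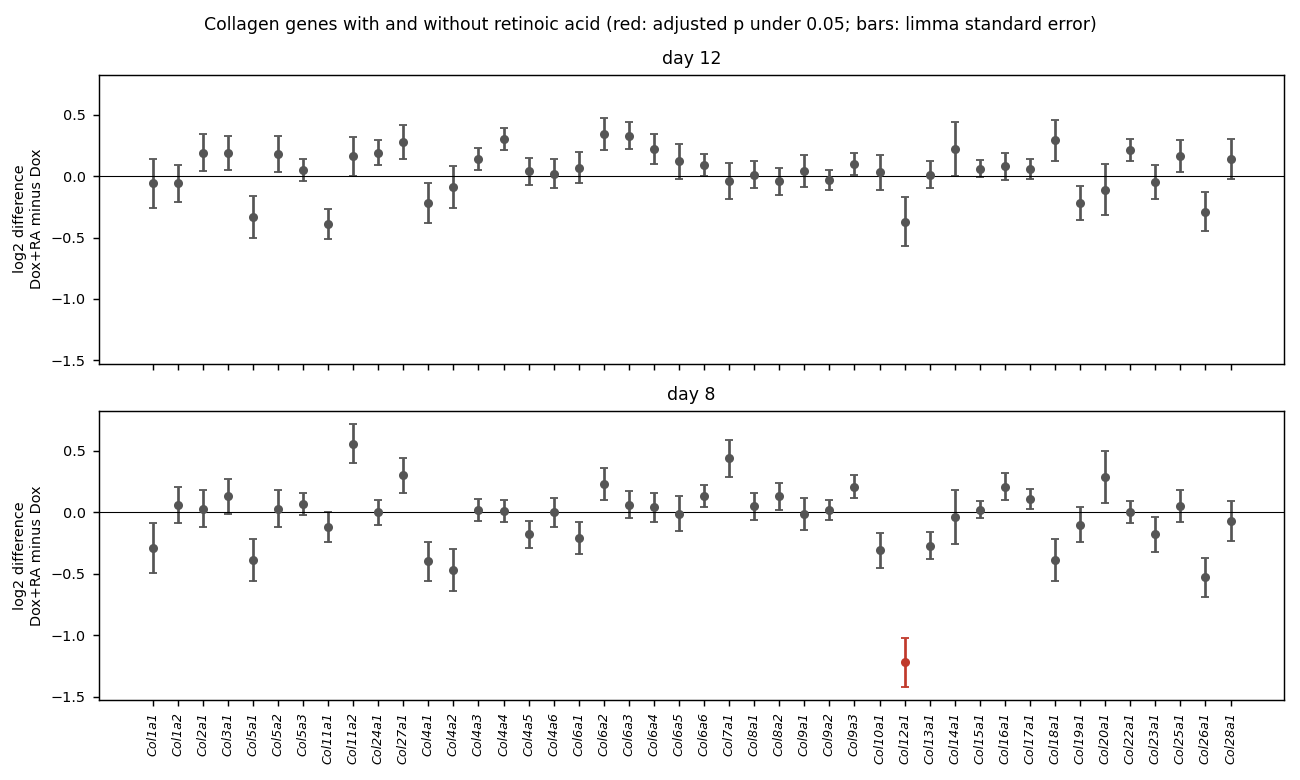
Difference in log2 signal between Dox+RA and Dox iHCs (vertical axis; bars, limma standard error) for each of the 44 collagen genes at day 12 (top) and day 8 (bottom). Col12a1 at day 8, at -1.22, is the only point with an adjusted p under 0.05 in this fit without the replicate block. The day 12 points lie between -0.39 and +0.34.

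Many genes that fold, process or cross-link collagen were lower in iHCs. Of 18 measured genes for collagen folding and modification, 12 were lower and 2 higher in Dox+RA iHCs at day 12. Crtap, part of the complex that hydroxylates prolines, was lower, at -3.45 ± 0.14, Serpinh1, the collagen chaperone of the endoplasmic reticulum, at -3.35 ± 0.25, and Creb3l1, a transcription factor of collagen-secreting bone cells, at -2.67 ± 0.21. Tmem38b, a potassium channel of the endoplasmic reticulum, was higher by +1.49 ± 0.19, and P3h4 by +0.50 ± 0.13. Of 13 genes for processing and cross-linking, 9 were lower and none higher. Lox, which cross-links collagen and elastin, was lower, at -4.07 ± 0.26, Pcolce, a helper of propeptide cleavage, at -3.79 ± 0.16, and Pxdn, which cross-links type IV collagen, at -3.51 ± 0.20.

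Collagen receptors were mixed, with 4 of 9 lower and 2 higher. Ddr2, a receptor kinase for fibrillar collagen, was lower, at -3.25 ± 0.22, and the integrin chains Itga1 and Itga2, at -1.03 ± 0.19 and -0.86 ± 0.11. Adgrg1, an adhesion receptor for type III collagen in the developing brain, was higher by +3.87 ± 0.22, and Ddr1, a receptor kinase of epithelia, by +0.40 ± 0.12. Of 14 genes for collagen breakdown and uptake, 7 were lower and none higher, led by Mmp2 (-3.96 ± 0.29), the protease inhibitor Reck (-2.58 ± 0.13) and Mmp14 (-2.45 ± 0.20). Of 14 laminins and other basement membrane partners, 10 were lower and 2 higher. Nid1, which links laminin to type IV collagen, was lower, at -4.79 ± 0.35, and the laminin chains Lama1 and Lamc1, at -4.41 ± 0.25 and -3.88 ± 0.24. The laminin chains Lama5 (+1.45 ± 0.16) and Lamc3 (+0.60 ± 0.17) were higher. All these calls compare with 22.4% of all genes in each direction. The median differences were -1.15 for folding, -1.96 for processing, -0.15 for receptors, -0.45 for breakdown and -1.52 for basement membrane partners, against 0.07 for all genes.

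**Figure D5:**
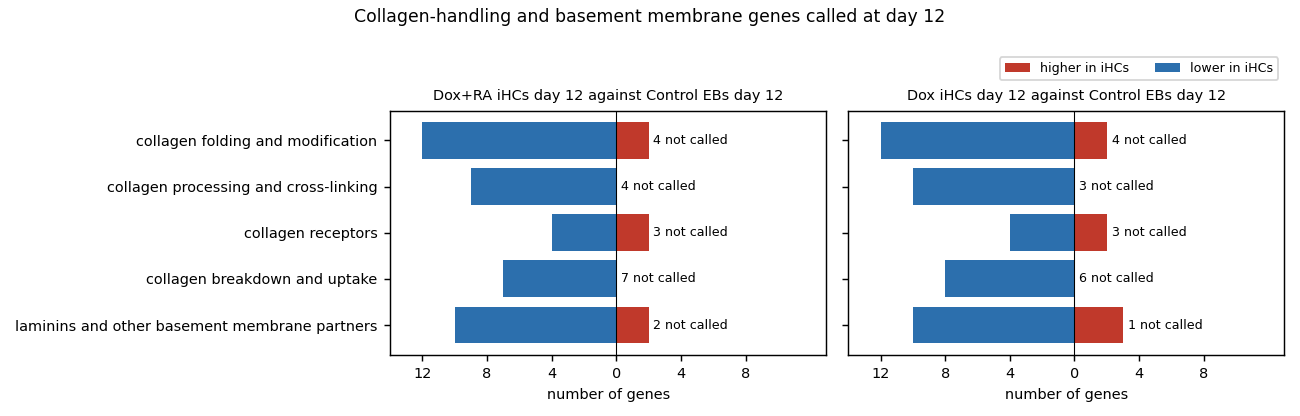
Number of genes (horizontal axis) that were lower (left of 0) or higher (right of 0) in Dox+RA iHCs (left panel) and Dox iHCs (right panel) than in control EBs at day 12, in each of 5 lists, with the number not called beside each bar. Folding genes have 12 lower and 2 higher in both panels, and processing genes have none higher.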

How the data were processed

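The deposited table holds 1 log2 value per array row for 16 Affymetrix Mouse Gene 2.1 ST arrays. According to the submitters' processing notes, the authors made these deposited log2 values with RMA and Affymetrix Expression Console. Their versions and the genome build are not stated there. RMA corrects the background, quantile-normalises and summarises probes. With 3 or 2 arrays a group, their number sets the precision. Of 33708 rows 23521 had 1 gene symbol, 1814 several and 8373 none in the platform's annotation. Rows with several symbols were not used, and 1 of them names a collagen gene. The row with the highest mean stood for a gene, which left 22180 genes. All 44 collagen genes matched the RefSeq gene table, and Col1a2, Col5a1 and Col6a1 had more than 1 row.

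limma 3.58.1 in R 4.3.3 was fitted to all 16 arrays with 6 group means and 12 contrasts (9 between groups, 3 interactions), with Benjamini-Hochberg adjustment over all genes. The code was tested on simulated data. The members, the classes and the 12 companion and marker lists were chosen with earlier results of these data known. Every collagen gene could be named. Values per array are given for the members described first, and the lists name up to 3 called genes in each direction by size in Dox+RA iHCs against control EBs at day 12. The replicate numbers of the labels were checked as a pairing: over all genes, deviations from group means correlated at 0.147 to 0.513 between same-numbered arrays in every pair of iHC groups, so the numbers were taken to pair the iHC samples. Between groups that include control EBs, which have 2 numbers, they correlated at 0.026 to 0.179. The replicate block was fitted to all 16 arrays, control EBs included. Its values in comparisons with control EBs thus also assume that the EB numbers pair, which was not established. The fit without that block is the one reported, so it leaves this pairing out. The blocked value stands beside it where a call changed. Alternatives were another normalisation, a filter on dim genes, the mean of all rows of a gene, other variance settings, array weights, a fit of only the groups compared, the replicate block and each array left out. No strip, scan date or other batch of the arrays was known here. Promoter windows came from RefSeq (GRCm38.p6), and 35 of the 44 genes had one.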

Additional observations from a re-analysis of the deposited data

Results flagged for a closer look

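The change of several collagen genes between day 8 and day 12 differed between iHCs and control EBs, in a test of that difference. Each value is the change in iHCs minus the change in control EBs, on the log2 scale, with limma's adjusted p. For Dox+RA iHCs the values were -2.37 for Col6a1, -2.37 for Col6a2 and -1.97 for Col6a3 (adjusted p = 2.4e-05, 2.3e-05 and 3.0e-05). Col1a2 had -1.46 (0.0037) and Col4a1 -1.26 (0.014). The Col4a1 call was lost without control EB day 8 replicate 1 (adjusted p = 0.055) or control EB day 12 replicate 2 (0.058).

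For Dox iHCs the values were -2.64 for Col6a1, -2.48 for Col6a2 and -2.24 for Col6a3. Col1a2 had -1.34, Col4a1 -1.44 and Col4a2 -1.37, and Col5a2 had -1.01, Col12a1 -1.52 and Col13a1 -0.84. Leaving out control EB day 8 replicate 2 ended the calls of Col4a2, Col5a2, Col12a1 and Col13a1 (adjusted p = 0.064 to 0.16). Control EB day 12 replicate 1 did so for Col5a2, Col12a1 and Col13a1 (0.099 to 0.15), and control EB day 12 replicate 2 for Col4a2 and Col5a2 (0.07 to 0.073). Col5a2 was also lost without Dox day 8 replicate 1 or 2 (0.053 and 0.076) or Dox day 12 replicate 2 (0.072). In all 14 cases the iHCs had the lower change. Some of these genes had low group means in iHCs, such as Col6a3 (4.4 to 4.74) and Col5a2 (4.31 to 4.49). The array medians over tested genes were 5.14 to 5.25, and others, such as Col6a1 (5.96 to 6.17), lay above them. How far the low signals can still show a change is not known. The Dox and Dox+RA values share the control EB arrays, of which there were 2 per day.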

How the results depend on the processing

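Of the 138 called differences of a collagen gene, 93 kept their call and direction under every alternative run that held the gene, and none was reversed. Genes removed by the filter on dim genes were not judged under that filter. Leaving out genes whose mean was under the median of all genes kept 21 of the 44 collagen genes in the fit, among 11090 genes. Of these 21, those called against control EBs were 16 and 16 in Dox+RA iHCs at day 12 and day 8 and 17 and 17 in Dox iHCs. The main fit had 29, 25, 27 and 26 of 44, so the totals differ and the smaller counts are not a lower share. The RA count at day 8 was 2 after another quantile normalisation, 3 without dim genes, 4 with array weights and 6 with the replicate block, against 1. The change of Dox iHCs between days had 6 calls with array weights, 1 in a fit of those groups alone and 6 with the replicate block, against 3. For Dox+RA iHCs it had 4 with array weights and 1 in a fit of those groups alone, against 2. The Dox+RA interaction with control EBs had 8 calls with array weights and 8 with the replicate block, against 5. The block moved no other count by over 1.5 times. Apart from fits with the block, the share of all genes called under an alternative is not given, so these counts have no background beside them. Leaving out single arrays gave 23 to 30 and 20 to 27 calls in Dox+RA iHCs against control EBs at day 12 and day 8, and 23 to 28 and 19 to 26 in Dox iHCs. It gave 1 to 3 for RA at day 8, 1 to 2 and 2 to 7 for the change between days in Dox+RA and Dox iHCs, 6 to 13 in control EBs, and 4 to 7 and 5 to 13 for the interactions of Dox+RA and Dox iHCs. A control EB group then rests on 1 array, which is assumed to vary like the other groups. With Col15a1 and Col18a1 added to the type IV genes, the class median was -1.65 in Dox+RA iHCs against control EBs at day 12, 0.38 between days in control EBs, and -0.23 in the Dox+RA interaction. Where a count moved, the cause was not tested, except that the filter on dim genes removes collagen genes from the fit. No background level came with the arrays. How far low signals such as those of Col4a4, or of Col5a2, Col6a3 and Col14a1 in iHCs, can still show a difference is not known.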
